A study of Homo sapiens with 6 samples.

Results

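The genes described here are 10 genes of lipolysis and of the lipid droplet, taken by name from the 58735 genes of the deposited table: G0S2, PNPLA2, ABHD5, LIPE, MGLL, PLIN2, PLIN3, PLIN5, HILPDA and CIDEA. Each name matched 1 row. The group was selected on earlier results of the same comparison, in which the FPKM of G0S2 differed between the plasmids, and was filled out by pathway. The differences of these genes between the plasmids are therefore a description, with no test. The tested cells were SZ95 sebocytes carrying a TRPV3-overexpression plasmid (3 libraries; genotype label TRPV3 overexpression), and the cells they were set against were SZ95 sebocytes given a mock plasmid (3 libraries; genotype label WT), all at 24 h per the labels. These are called TRPV3 libraries and mock libraries from here on. SZ95 is an immortalised line of human sebaceous gland cells, so all 6 libraries share 1 genetic background. TRPV3 encodes a calcium-permeable cation channel, and the design text asks what it does in sebocyte inflammation. The labels give neither the promoter that drives the plasmid nor the share of cells that took it up. RNA was measured in bulk, so fewer cells of a kind and less RNA per cell cannot be told apart.

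Sebocytes fill with lipid droplets and release them as sebum. A droplet is a core of neutral lipid under a coat of proteins, the perilipins and the CIDE proteins among them. Triacylglycerol in the core is broken down in steps: the lipase ATGL, encoded by PNPLA2, removes the first fatty acid, hormone-sensitive lipase (LIPE) acts mainly on the diacylglycerol that is left, and monoacylglycerol lipase (MGLL) finishes the sequence. ATGL is stimulated by its cofactor ABHD5 and inhibited by the small proteins G0S2 and HILPDA.

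The stretches before the transcription starts of G0S2, of PNPLA2 (the lipase that G0S2 inhibits) and of PLIN2 (a droplet coat gene) are shown to set an inhibitor beside its enzyme and a coat gene, the G0S2 values standing apart between the groups and those of PNPLA2 and PLIN2 overlapping. Sequences are from RefSeq on GRCh38.p14, 250 bases each, written 5′ to 3′ on the strand of the gene. Windows were found for 8 of the 10 genes. Those of MGLL and HILPDA are named only.
G0S2 (chr1:209675162-209675411, plus strand): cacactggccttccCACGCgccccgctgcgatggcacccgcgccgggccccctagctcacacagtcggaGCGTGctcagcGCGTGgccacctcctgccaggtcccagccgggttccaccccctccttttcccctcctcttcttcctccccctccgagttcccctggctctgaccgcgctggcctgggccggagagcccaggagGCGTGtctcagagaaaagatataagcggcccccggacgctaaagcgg
PNPLA2 (chr11:818664-818913, plus strand): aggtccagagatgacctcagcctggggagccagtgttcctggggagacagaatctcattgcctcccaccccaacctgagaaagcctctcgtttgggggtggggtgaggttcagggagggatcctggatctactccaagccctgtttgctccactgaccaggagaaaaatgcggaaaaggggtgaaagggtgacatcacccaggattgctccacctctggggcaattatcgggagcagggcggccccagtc
PLIN2 (chr9:19127493-19127742, minus strand): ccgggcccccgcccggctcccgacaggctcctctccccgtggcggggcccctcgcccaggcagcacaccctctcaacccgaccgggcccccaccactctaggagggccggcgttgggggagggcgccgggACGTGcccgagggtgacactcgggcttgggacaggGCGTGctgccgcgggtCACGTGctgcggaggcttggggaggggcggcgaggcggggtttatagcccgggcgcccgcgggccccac
Capitals mark matches, on either strand, to the hypoxia-factor cores GCGTG and ACGTG, the E-box CACGTG (which contains ACGTG), the AP-1 motif TGANTCA, the cyclic AMP element TGACGTCA, an NF-kB motif (GGGA and TTTCC with 1 base between) and a PPAR element (AGGTCA repeated after 1 base). The G0S2 window held GCGTG at 4 places, beginning 236, 181, 170 and 47 bases before the start, and none of the other motifs. The PNPLA2 window held none. The PLIN2 window held GCGTG beginning 85 bases before the start, a separate ACGTG at 120 and, at 69, the palindromic E-box. Several GCGTG were not particular to G0S2. Of the windows not shown, that of PLIN3, whose values overlapped between the groups, held GCGTG at 3 places and that of PLIN5 at 2. ABHD5 windows held it at 1 place or none, and those of LIPE and CIDEA held none. The shares that follow count windows with at least 1 match. Of 35116 windows of the same length, 32.2% held GCGTG, 18.5% ACGTG, 6.34% the E-box, 6.57% TGANTCA, 1.65% TGACGTCA, 0.527% the NF-kB motif and 0.0171% the PPAR element. A match is a run of letters and not a measured binding site.

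Levels are in FPKM, which divides the reads of a gene by its length and by a size set for the library. Whole reads could be recovered: 17.4 to 18.4 M per TRPV3 library and 16.0 to 17.5 M per mock library. TRPV3 itself was at 536, 671 and 738 FPKM in TRPV3 libraries, against 0.437, 0.359 and 0.415 FPKM in mock libraries, which fits the labels. Of 10 sebocyte markers 6 had a mean of at least 1 FPKM, led by KRT7 and SCD, while MC5R, AWAT1 and KRT79 averaged under 0.1 FPKM. The adipocyte markers ADIPOQ and FABP4 had 0 reads in every library, and the 8 adipocyte markers summed to 15.5 to 18.7 FPKM in TRPV3 libraries and 14.8 to 15.9 FPKM in mock libraries, nearly all of it LPL and CFD. Of the other skin cells, 5 of 6 keratinocyte markers reached a mean of 1 FPKM over all 6 libraries. Among these KRT14 averaged 1.19 FPKM in TRPV3 libraries but 0.859 FPKM in mock libraries. The 6 summed to 181 to 194 FPKM in TRPV3 libraries and 173 to 206 FPKM in mock libraries. Of 5 fibroblast markers 1 (COL1A1) reached a mean of 1 FPKM. The 5 summed to 2.05 to 2.20 FPKM in TRPV3 libraries and 2.37 to 2.88 FPKM in mock libraries, without overlap. Of the keratinocyte markers, most of whose sum was KRT5, KRT10 was at 21.1, 19.1 and 19.4 FPKM in TRPV3 libraries and 15.96, 18.7 and 13.5 FPKM in mock libraries, also without overlap (log2 fold change 0.30, SE 0.12, limma adjusted p = 0.755). The part of these differences in the results below was not tested. TRPV3 replicate 1 stood apart: its short genes were high and its long genes low. Values without it are given for each fitted member, for each list median and for the genes named from the lists whose direction turned without it. Of the markers named above, the direction of KRT7, SCD and CFD also turned.

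G0S2 (ENSG00000123689, chromosome 1, 209675420 to 209676388, plus strand, hg38), the ATGL inhibitor, was the highest of the 10 genes in FPKM and the one that stood apart between the groups. Its 1 annotated transcript has 2 exons and 866 bases. G0S2 was at 118, 69.7 and 77.8 FPKM in TRPV3 replicates 1 to 3, against 36.4, 42.8 and 45.7 FPKM in mock replicates 1 to 3. The groups did not overlap, and the lowest TRPV3 value was 1.53 times the highest mock value. The means were 88.5 ± 25.9 FPKM with TRPV3 and 41.6 ± 4.77 FPKM with mock (SD, n = 3 each), a ratio of 2.13. Behind these values stood 1804, 1080 and 1178 reads in TRPV3 libraries and 553, 601 and 721 reads in mock libraries, and counting error alone gave the ratio a 95% interval of 2.01 to 2.25. That interval leaves out the spread between libraries. The fitted log2 fold change of FPKM + 1 was 1.04 (SE 0.20). Its limma 95% interval, which takes in that spread, ran from 1.48-fold to 2.85-fold. In level G0S2 exceeded 96.3% of the genes tested in TRPV3 cells and 91.3% in mock cells.

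**Figure D1:**
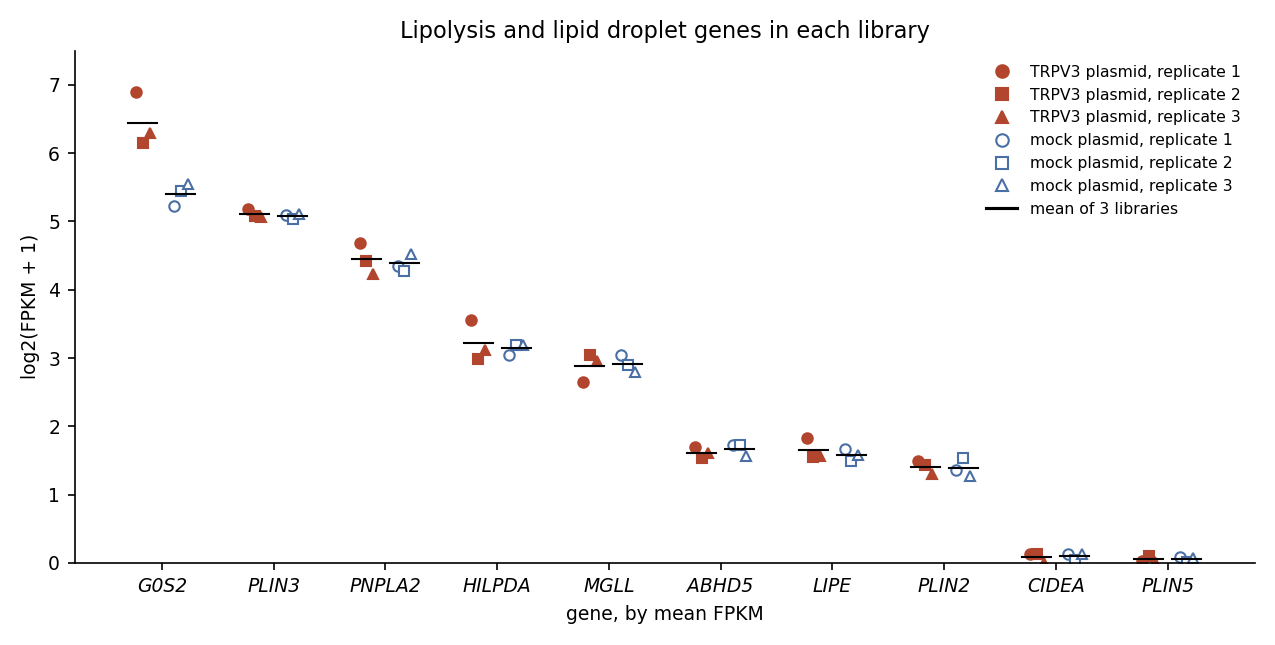
Levels of the 10 genes as log2(FPKM + 1) in each library, ordered by mean FPKM; filled symbols are TRPV3 libraries, open symbols mock libraries, symbol shape the replicate number, and bars the mean of 3 log2 values. G0S2 is the gene whose groups do not overlap, and TRPV3 replicate 1 is its highest library at 118 FPKM.

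Of the 10 genes 8 had a mean of at least 1 FPKM and entered the fit over 12177 genes. Of these 8, 0 passed an adjusted limma p of 0.05, against 0.0411% of all genes tested. At an unadjusted p of 0.05 there was 1 (G0S2), against 4.48% of all genes. limma-voom on the recovered reads called 0 (0.0493% of all genes), and without TRPV3 replicate 1 it called 1, again G0S2 (0.55% of all genes), where limma on log2 values called 0 (0.0657%). Groups without overlap were found for 1 of 8 with TRPV3 above, against 9.49% of all genes, and for 0 of 8 with TRPV3 below, against 5.39%. Because the gene was picked with this difference in view, these counts are listed beside the background and nothing is read from them.

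TRPV3 replicate 1 showed a trend with gene length, and whether it accounts for part of the G0S2 value was not tested. G0S2 is the shortest of the 10 genes, and at its length the typical gene of TRPV3 replicate 1 deviated from its own mean over the 6 libraries by 0.27 on the log2 scale, against -0.03 and -0.04 in TRPV3 replicates 2 and 3 and -0.10, -0.03 and -0.05 in mock replicates 1 to 3. G0S2 itself deviated by 0.97, 0.22 and 0.37 in TRPV3 replicates 1 to 3, against -0.70, -0.47 and -0.38 in mock replicates 1 to 3. After the trend was taken off, the deviations were 0.70, 0.25 and 0.41 in TRPV3 replicates 1 to 3 and -0.60, -0.45 and -0.34 in mock replicates 1 to 3, and the groups still did not overlap. The log2 fold change was then 0.91 (SE 0.12). Without TRPV3 replicate 1 the means were 73.7 FPKM with TRPV3 (n = 2) and 41.6 FPKM with mock, a ratio of 1.77 and a log2 fold change of 0.81 (SE 0.10).

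**Figure D2:**
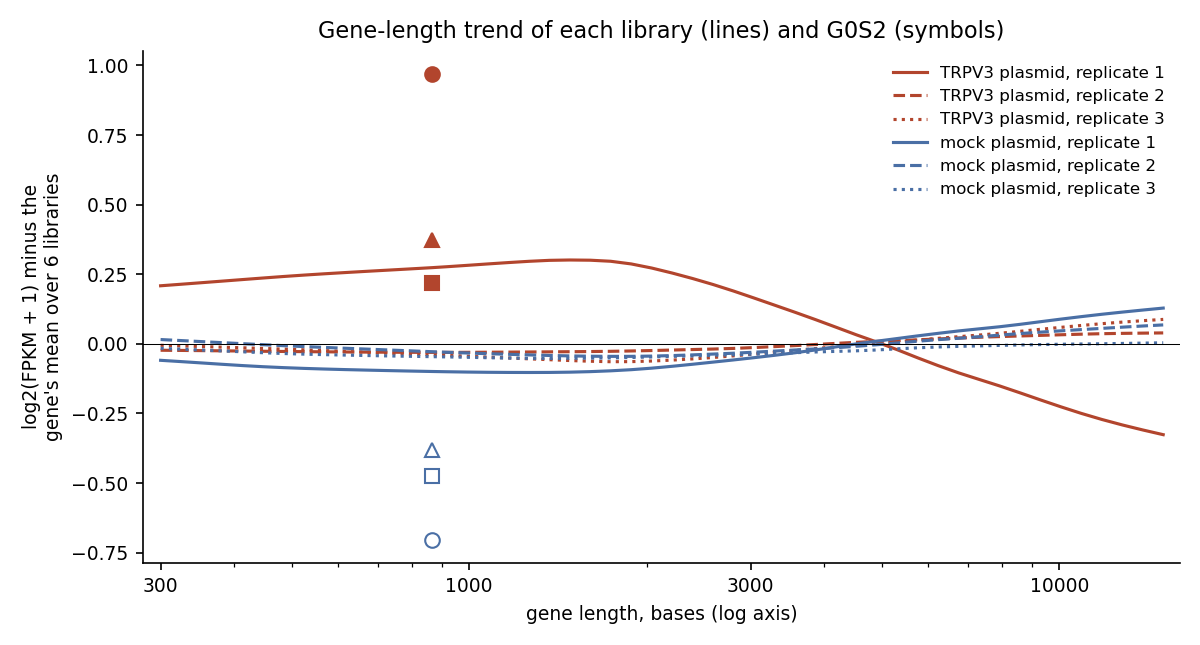
Smoothed deviation of genes from their own mean, on the log2(FPKM + 1) scale, against gene length in bases on a log axis, 1 line per library, with the deviation of G0S2 in each library as a symbol at 866 bases (replicate 1 circle, 2 square, 3 triangle; filled TRPV3, open mock). The line of TRPV3 replicate 1 lies at 0.27 at the length of G0S2, the other 5 lines lie between -0.10 and -0.03 there, and all 3 TRPV3 symbols lie above all 3 mock symbols.

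The lipases that G0S2 stands next to showed no such separation. PNPLA2 (ENSG00000177666, chromosome 11, 818902 to 825573), which encodes ATGL, was at 24.7, 20.4 and 17.9 FPKM in TRPV3 replicates 1 to 3, against 19.5, 18.3 and 22.1 FPKM in mock replicates 1 to 3. The groups overlapped, TRPV3 holding both the highest and the lowest library. The log2 fold change was 0.06 (SE 0.13), and its 95% interval ran from -0.25 to 0.37, or from 0.843-fold to 1.29-fold on the FPKM + 1 scale. Without TRPV3 replicate 1 the log2 fold change was -0.06. A change of PNPLA2 as large as the 2.13-fold of G0S2 lies outside that interval.

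ABHD5 (ENSG00000011198, chromosome 3, 43690108 to 43734371), the ATGL cofactor, was lower in FPKM than its lipase. Its FPKM divides by 7549 bases, the merged exons of 16 transcripts, against 3843 bases for PNPLA2. In reads summed over a group, ABHD5 had 827 against 4281 for PNPLA2 in TRPV3 libraries, and 858 against 4004 in mock libraries. ABHD5 was at 2.25, 1.89 and 2.06 FPKM in TRPV3 libraries and 2.30, 2.31 and 1.96 FPKM in mock libraries, with overlapping groups and a log2 fold change of -0.06 (SE 0.09), which was -0.10 without TRPV3 replicate 1. It shares 170 exonic bases with ANO10 on the opposite strand, which had 345 to 431 reads per library where ABHD5 had 255 to 305, and whether reads were counted by strand is not stated. LIPE (ENSG00000079435, chromosome 19, 42401507 to 42427426) was at 2.55, 1.94 and 1.94 FPKM in TRPV3 libraries and 2.18, 1.82 and 1.99 FPKM in mock libraries (log2 fold change 0.07, SE 0.11). Its highest library was again TRPV3 replicate 1, the other 2 TRPV3 libraries lay within the mock range, and without replicate 1 its log2 fold change was -0.02. MGLL (ENSG00000074416, chromosome 3, 127689062 to 128052190) was at 5.29, 7.22 and 6.75 FPKM in TRPV3 libraries and 7.24, 6.45 and 5.95 FPKM in mock libraries (log2 fold change -0.03, SE 0.12). MGLL, the longest of the 10 genes at 11849 bases, was lowest in TRPV3 replicate 1, where the length trend at that length was -0.27, and without that library its log2 fold change was 0.08.

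HILPDA (ENSG00000135245, chromosome 7, 128455849 to 128458418), the other ATGL inhibitor and a known hypoxia-inducible gene, did not follow G0S2. HILPDA was at 10.8, 6.88 and 7.70 FPKM in TRPV3 replicates 1 to 3, against 7.26, 8.10 and 8.11 FPKM in mock replicates 1 to 3. TRPV3 replicate 1 was the highest library, and TRPV3 replicate 2 the lowest. The means were 8.47 ± 2.07 FPKM with TRPV3 and 7.82 ± 0.487 FPKM with mock, and the log2 fold change of 0.08 (SE 0.15) turned to -0.09 without TRPV3 replicate 1 and to -0.04 with the length trend removed.

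Among the droplet coat genes PLIN3 was abundant, PLIN2 low and PLIN5 and CIDEA close to the detection limit. PLIN3 (ENSG00000105355, chromosome 19, 4838341 to 4867768), a perilipin found in many tissues that moves between cytosol and droplets, was at 35.5, 32.7 and 32.5 FPKM in TRPV3 libraries and 33.3, 31.8 and 33.6 FPKM in mock libraries. It was the steadiest of the 8 genes fitted, with the smallest standard error (log2 fold change 0.03, SE 0.07, 95% interval -0.15 to 0.20; -0.01 without TRPV3 replicate 1). PLIN2 (ENSG00000147872, chromosome 9, 19108375 to 19149290), a perilipin bound to droplets and a PPAR target, was at 1.81, 1.70 and 1.46 FPKM in TRPV3 libraries and 1.57, 1.89 and 1.40 FPKM in mock libraries (log2 fold change 0.02, SE 0.11; -0.02 without TRPV3 replicate 1). In FPKM PLIN3 exceeded PLIN2 20.4 ± 1.64-fold in TRPV3 libraries and 20.7 ± 3.60-fold in mock libraries. Their summed reads were 5007 and 447 in TRPV3 libraries, and 4816 and 426 in mock libraries.

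PLIN5, a perilipin of tissues that oxidise fat, and CIDEA, a droplet fusion protein, lay under the filter. PLIN5 (ENSG00000214456, chromosome 19, 4522531 to 4535224) had 2, 6 and 1 reads in TRPV3 libraries and 5, 1 and 4 reads in mock libraries, and CIDEA (ENSG00000176194, chromosome 18, 12254319 to 12277595) had 3, 3 and 0 reads in TRPV3 libraries and 3, 1 and 3 reads in mock libraries. PLIN5 shares 1047 exonic bases with AC011498.4 on the same strand, which had 0 to 2 reads per library. How shared reads were assigned is not stated. The 0 of CIDEA in TRPV3 replicate 3 still allows 3 reads, or 0.0926 FPKM, above its mock mean of 0.0715 FPKM. Summed over a group and scaled for depth, the ratio of TRPV3 to mock was 0.883 for PLIN5 (exact 95% counting interval 0.317 to 2.42) and 0.841 for CIDEA (0.233 to 2.92). A difference between the groups was not detectable for either gene at this depth, and these intervals cover counting error only.

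**Figure D3:**
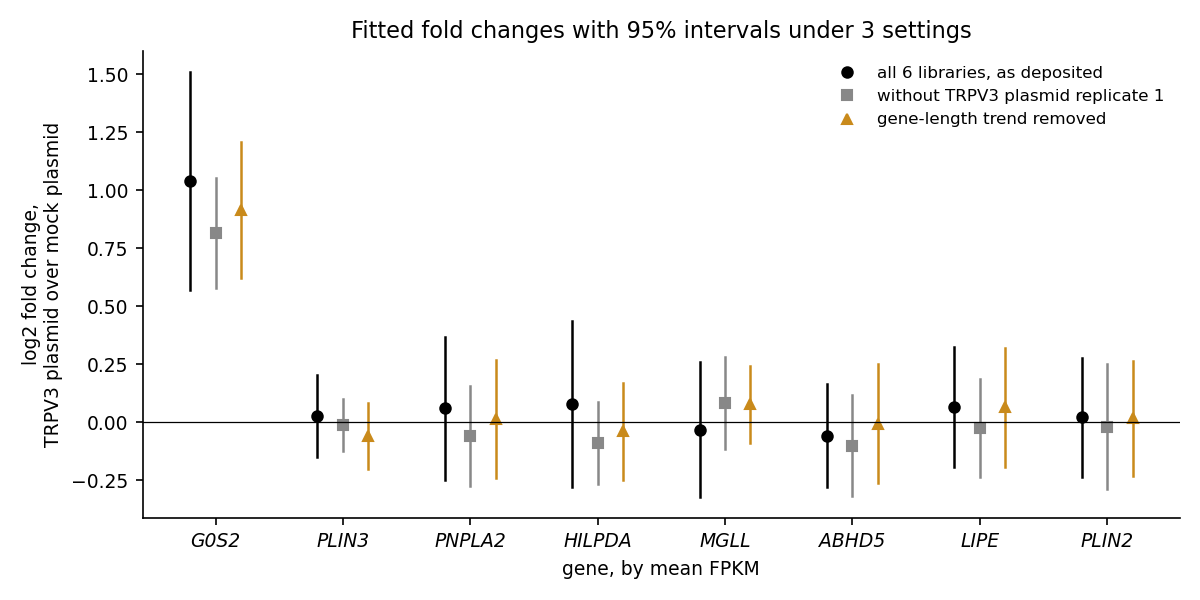
Difference in log2(FPKM + 1), TRPV3 plasmid minus mock plasmid, with limma 95% intervals for the 8 genes at a mean of at least 1 FPKM, under 3 settings (all libraries, without TRPV3 replicate 1, length trend removed). G0S2 lies at 1.04, 0.81 and 0.91 in that order of settings, and every interval of the other 7 genes spans 0.

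The fitted genes other than G0S2 differed by at most 0.08 on the log2 scale in either direction, within 1 standard error. The sign of PNPLA2, LIPE, MGLL, PLIN2, PLIN3 and HILPDA turned under 4 to 6 of the 16 or 17 alternative settings, while G0S2 stayed between 0.80 and 1.19 under all 17 and ABHD5 stayed below 0 under all 16. The order of levels, in FPKM, was G0S2, PLIN3, PNPLA2, HILPDA and MGLL in both groups, followed by LIPE, ABHD5 and PLIN2 in TRPV3 cells and by ABHD5, LIPE and PLIN2 in mock cells, with CIDEA and PLIN5 last. LIPE and ABHD5 overlapped in both groups, as did CIDEA and PLIN5. HILPDA and MGLL overlapped in TRPV3 cells, and LIPE and PLIN2 in mock cells. G0S2 and PLIN3 stood at 88.5 and 33.6 FPKM in TRPV3 cells, and at 41.6 and 32.9 FPKM in mock cells.

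Ratios within a library show how the inhibitor stood to its enzyme. The ratio of G0S2 to PNPLA2 was 4.77, 3.42 and 4.35 in TRPV3 replicates 1 to 3, against 1.87, 2.33 and 2.07 in mock replicates 1 to 3. The groups did not overlap, with means of 4.18 ± 0.692 in TRPV3 libraries and 2.09 ± 0.232 in mock libraries (SD, n = 3 each). G0S2 was picked for its difference between the plasmids, while PNPLA2 and HILPDA overlapped. Ratios with G0S2 on top therefore restate that difference and are no further result. Set against HILPDA, the other short inhibitor gene, G0S2 gave ratios of 10.9, 10.1 and 10.1 in TRPV3 libraries and 5.01, 5.28 and 5.63 in mock libraries, with less spread among TRPV3 libraries than the level of G0S2 alone. The cofactor gave no separation: ABHD5 to PNPLA2 was 0.0996 ± 0.0136 in TRPV3 libraries and 0.111 ± 0.0196 in mock libraries. MGLL to PNPLA2 was 0.315 ± 0.0888 in TRPV3 libraries and 0.331 ± 0.0544 in mock libraries. LIPE to PNPLA2 was 0.103, 0.0953 and 0.109 in TRPV3 libraries and 0.112, 0.0994 and 0.0902 in mock libraries, also overlapping. Ratios of FPKM compare RNA per length and say nothing of protein.

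**Figure D4:**
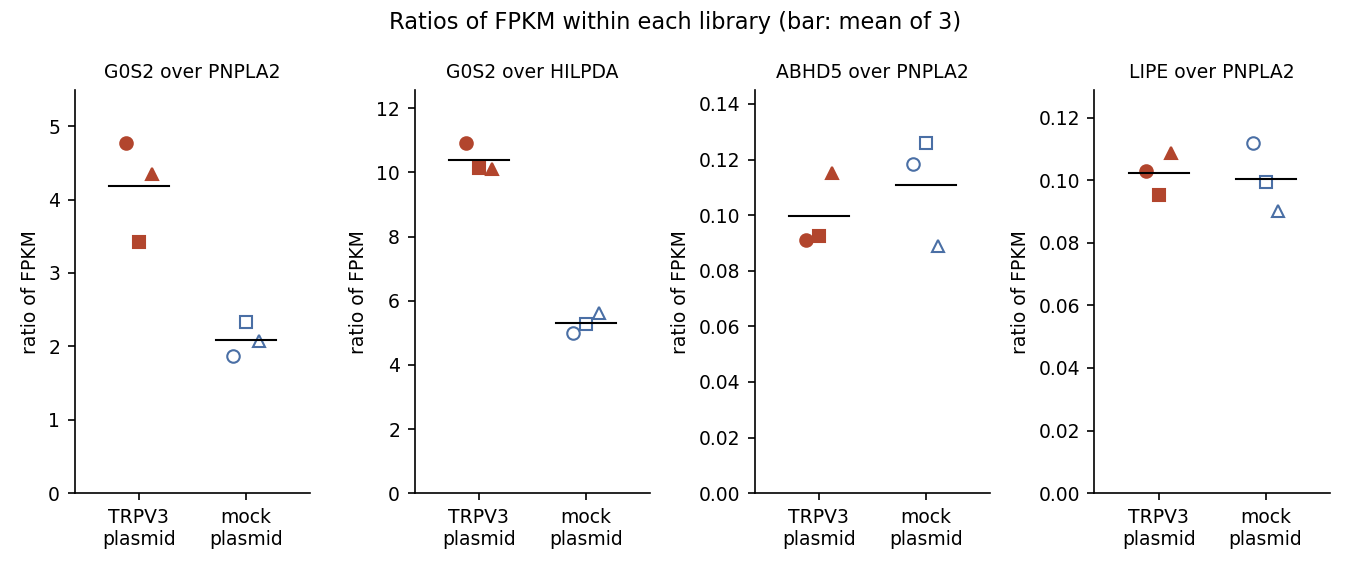
Ratio of 2 genes' FPKM in each library (left TRPV3 plasmid, right mock plasmid, bar the mean of 3; axes start at 0). The 2 ratios with G0S2 on top do not overlap between the groups, which restates the difference for which G0S2 was picked. G0S2 over PNPLA2 averages 4.18 with TRPV3 and 2.09 with mock. The ratios of ABHD5 and LIPE to PNPLA2 overlap.

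The genes whose profile over the 6 libraries was nearest to that of G0S2 were sought among 10624 other protein-coding genes by the root mean square difference of centred log2(FPKM + 1) values. The nearest were ISG15, an interferon-induced ubiquitin-like modifier (difference 0.16), a gene listed as AC004556.1 (0.16) and the cytokine gene IL11 (0.17). None of the 3 was called by limma (adjusted p = 0.652, 0.597 and 0.374 in that order). A ranking of this kind always has nearest genes, so it is a description only. ISG15 was at 111, 73.6 and 64.9 FPKM in TRPV3 libraries and 41.8, 47.7 and 48.4 FPKM in mock libraries, and IL11 at 4.65, 2.82 and 3.40 FPKM in TRPV3 libraries and 1.62, 1.68 and 1.75 FPKM in mock libraries. ISG15 and AC004556.1 are short like G0S2, at 941 and 740 bases. All 3 were highest in TRPV3 replicate 1, as G0S2 was, which the search selects for. Of the other fitted lipolysis and droplet genes the nearest was HILPDA, at rank 2024 of 10624, and the farthest MGLL, at rank 8172.

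The rest of the pathway was read from 8 lists of other genes, 127 in all with each counted once, of which 95 had a mean of at least 1 FPKM. Of these 95, 0 rose and 0 fell by limma over all genes tested (0.0411% of all genes called), and 0 lay under an unadjusted p of 0.05 (4.48% of all genes). By limma-voom 0 were called with all libraries (0.0493% of all genes), and 1 without TRPV3 replicate 1 (0.55% of all genes). Groups without overlap were found for 7 of 95 with TRPV3 above (7.37%, against 9.49% of all genes) and for 5 with TRPV3 below (5.26%, against 5.39%). The median log2 fold change of the 95 was -0.02, against 0.01 over all genes tested. Without TRPV3 replicate 1 these medians were -0.00231 for the 95 and 0.00798 for all genes. The 7 above were TMEM159, AUP1, SPART, LPL, GPAT3, SLC27A2 and P4HA1. The 5 below were PCYT1A, AGPAT1, AGPAT3, SLC2A1 and KDM3A. The log2 fold changes of single list genes ran from -0.29 to 0.28. G0S2, at 1.04, was picked for its difference, so its distance from these genes is not a result.

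Of the other droplet coat and biogenesis genes 12 of 19 were fitted, 0 were called, and the median log2 fold change was -0.05, which turned to 0.01 without TRPV3 replicate 1. AUP1, a droplet protein of ubiquitin-dependent degradation, averaged 66.3 ± 10.7 FPKM with TRPV3 and 56.2 ± 0.274 FPKM with mock (log2 fold change 0.22, SE 0.12). Its groups did not overlap, and the log2 fold change was 0.10 without TRPV3 replicate 1. LPCAT1, a phospholipid-remodelling enzyme, averaged 42.6 ± 1.61 FPKM with TRPV3 and 44.1 ± 1.30 FPKM with mock. HSD17B11, a droplet-bound dehydrogenase, averaged 2.32 ± 0.458 FPKM with TRPV3 and 2.70 ± 0.0309 FPKM with mock. The coat genes typical of fat cells were near 0: PLIN1 and PLIN4 had at most 10 reads in a TRPV3 library and 14 in a mock library, and CIDEC had 0 reads in every TRPV3 library and 0, 0 and 3 in mock libraries.

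Of other lipases 16 of 18 were fitted, 0 were called, and the median was -0.07, which turned to 0.03 without TRPV3 replicate 1. The lysosomal acid lipase LIPA averaged 29.4 ± 1.57 FPKM with TRPV3 and 30.4 ± 0.925 FPKM with mock, above PNPLA2 in level. ABHD12, a lysophospholipid lipase, was at 29.6, 24.95 and 23.8 FPKM in TRPV3 libraries and 24.6, 24.7 and 26.7 FPKM in mock libraries, which overlapped, and its log2 fold change of 0.04 turned to -0.05 without TRPV3 replicate 1. LIPG, the secreted endothelial lipase, averaged 15.5 ± 1.81 FPKM with TRPV3 and 13.3 ± 0.682 FPKM with mock (log2 fold change 0.20, SE 0.10, limma adjusted p = 0.755). LIPG was the 1 list gene that limma-voom called without TRPV3 replicate 1 (adjusted p = 0.0227), where its log2 fold change by limma was 0.29. LPIN3, a phosphatidate phosphatase, averaged 3.90 ± 0.837 FPKM with TRPV3 and 4.57 ± 0.266 FPKM with mock (log2 fold change -0.20, SE 0.13), and the log2 fold change was -0.08 without TRPV3 replicate 1.

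Cyclic AMP and PKA carry the signal that switches lipolysis on in fat cells. Of their genes 14 of 20 were fitted and 0 were called, and the median, -0.11, was the lowest of the 8 lists and was -0.02 without TRPV3 replicate 1. The adenylyl cyclase ADCY7 averaged 6.01 ± 2.48 FPKM with TRPV3 and 7.13 ± 0.135 FPKM with mock, a log2 fold change of -0.29 that was 0.05 without TRPV3 replicate 1. ADCY3, another cyclase, was at 12.11, 17.55 and 18.49 FPKM in TRPV3 libraries and 20.03, 16.97 and 19.28 FPKM in mock libraries. TRPV3 replicate 1 was the lowest library for both cyclases, and the ADCY3 log2 fold change of -0.23 was -0.05 without it. GNAS, the stimulatory G protein, was at 100.8, 92.67 and 91.50 FPKM in TRPV3 libraries and 95.01, 89.72 and 96.15 FPKM in mock libraries (log2 fold change 0.02, and -0.02 without TRPV3 replicate 1). PRKAR1A, a regulatory subunit of PKA, averaged 33.8 ± 2.90 FPKM with TRPV3 and 34.8 ± 1.51 FPKM with mock (log2 fold change -0.04, and 0.02 without TRPV3 replicate 1). PDE3B, the phosphodiesterase through which insulin restrains lipolysis in fat cells, had at most 4 reads in a TRPV3 library and 5 in a mock library.

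Of triacylglycerol and ester synthesis genes 11 of 17 were fitted, 0 were called, and the median was -0.01, and -0.02 without TRPV3 replicate 1. The acyltransferase AGPAT2 averaged 50.8 ± 10.8 FPKM with TRPV3 and 48.6 ± 3.61 FPKM with mock, a log2 fold change of 0.05 that turned to -0.12 without TRPV3 replicate 1. GPAT3, which starts glycerolipid synthesis, averaged 18.8 ± 0.541 FPKM with TRPV3 and 17.5 ± 0.555 FPKM with mock, without overlap. GPAM, the mitochondrial enzyme of the same step, averaged 4.76 ± 0.898 FPKM with TRPV3 and 5.39 ± 0.343 FPKM with mock, with overlap (log2 fold change -0.16, and -0.02 without TRPV3 replicate 1). AGPAT1, a relative of AGPAT2, averaged 6.50 ± 0.514 FPKM with TRPV3 and 7.35 ± 0.282 FPKM with mock, without overlap (log2 fold change -0.16, SE 0.08, limma adjusted p = 0.755). None of these 4 enzymes passed the test.

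Of fatty acid uptake and activation genes 12 of 15 were fitted, 0 were called, and the median was -0.01, which turned to 0.03 without TRPV3 replicate 1. DBI, an acyl-CoA binding protein, averaged 43.6 ± 9.70 FPKM with TRPV3 and 35.3 ± 3.93 FPKM with mock, and its log2 fold change of 0.28 (SE 0.16) was 0.11 without TRPV3 replicate 1. ACSL3, an acyl-CoA synthetase of droplets, averaged 46.6 ± 4.68 FPKM with TRPV3 and 46.7 ± 3.60 FPKM with mock (log2 fold change -0.01, and 0.08 without TRPV3 replicate 1). SLC27A2, a fatty acid transporter and synthetase, averaged 5.08 ± 0.531 FPKM with TRPV3 and 4.35 ± 0.151 FPKM with mock, without overlap. Of fatty acid oxidation genes 13 of 15 were fitted and 0 were called, and the median, 0.08, was the highest of the 8 lists and was -0.02 without TRPV3 replicate 1. ACADVL, which opens the oxidation of long chains, averaged 55.9 ± 5.84 FPKM with TRPV3 and 51.5 ± 0.911 FPKM with mock. HADHA, a subunit of the trifunctional protein, averaged 52.7 ± 4.83 FPKM with TRPV3 and 50.2 ± 1.55 FPKM with mock. ECI1, an isomerase of the same pathway, averaged 26.5 ± 6.97 FPKM with TRPV3 and 24.0 ± 2.19 FPKM with mock. TRPV3 replicate 1 held the highest value of all 3. Their log2 fold changes of 0.11 for ACADVL, 0.06 for HADHA and 0.11 for ECI1 became 0.03, -0.01 and -0.09 in the same order without it.

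G0S2, PLIN2 and HILPDA are known PPAR targets. Of the other PPAR targets listed 7 of 15 were fitted, 0 were called, and the median was 0.04, which turned to -0.01 without TRPV3 replicate 1. ANGPTL4, a secreted inhibitor of lipoprotein lipase, averaged 4.42 ± 1.33 FPKM with TRPV3 and 3.81 ± 0.238 FPKM with mock, and its log2 fold change of 0.15 turned to -0.05 without TRPV3 replicate 1, its highest library at 5.96 FPKM. LPL, that lipase, was at 10.80, 11.04 and 10.82 FPKM in TRPV3 libraries and 10.51, 10.02 and 9.454 FPKM in mock libraries, without overlap. ACSL1, an acyl-CoA synthetase, averaged 20.3 ± 1.71 FPKM with TRPV3 and 21.8 ± 2.25 FPKM with mock. Of the hypoxia-inducible list, the class to which HILPDA belongs, 17 of 20 were fitted, 0 were called, and the median was 0.01, and 0.00184 without TRPV3 replicate 1. LDHA, lactate dehydrogenase, averaged 171 ± 15.4 FPKM with TRPV3 and 162 ± 8.75 FPKM with mock. DDIT4, an inhibitor of mTOR signalling, averaged 134 ± 5.10 FPKM with TRPV3 and 142 ± 10.9 FPKM with mock. ADM, the peptide hormone adrenomedullin, was at 1.981, 1.542 and 2.48 FPKM in TRPV3 libraries and 1.529, 1.496 and 1.898 FPKM in mock libraries. None of these genes passed the test, and some stand in more than 1 list.

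**Figure D5:**
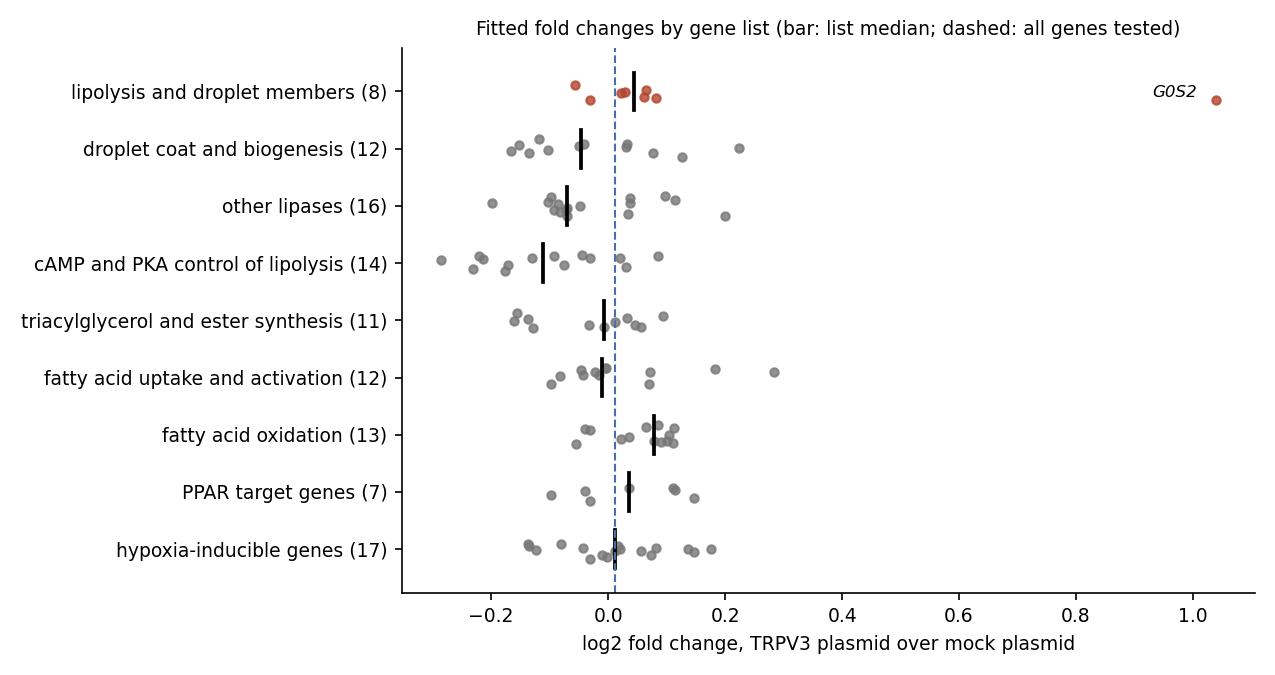
Each point is the fitted log2 fold change of 1 gene between TRPV3 plasmid and mock plasmid (positive, higher with TRPV3), for the 8 fitted lipolysis and droplet genes (top row) and of 8 lists of related genes, with the number fitted in brackets, a black bar at each list median and a dashed line at the median of all genes tested (0.01). G0S2, which was picked for its difference, lies at 1.04, and the genes of the other lists lie between -0.29 and 0.28.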

How the data were processed

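RNA of 6 bulk libraries was extracted with TRIzol and prepared with a NEBNext Ultra kit, per the labels' protocols. The authors deposited FPKM values for each gene, per the file headers, beside a gene length. Alignment used HISAT2 2.0.5 on hg38, per the submitters' processing notes. How reads were counted, and whether by strand, was not stated. Coordinates and lengths of the 10 genes matched GENCODE 29. Multiplying by gene length turned 100% of values into whole multiples of 1 step (tolerance 0.02 reads), which gave the reads used for depth, counting intervals and limma-voom. Differences were fitted on log2(FPKM + 1), pseudocount 1, in limma 3.58.1 under R 4.3.3, with a mean-variance trend, over the 12177 genes averaging at least 1 FPKM. P-values were Benjamini-Hochberg adjusted over those genes and called under 0.05. The code was tested on simulated data. The length trend is a lowess curve (span 0.3) of each library's deviations from gene means. The 10 genes, the lists and the tests were chosen with earlier results of these data known. Genes named from a list were its called genes or, with fewer than 2 called, the 2 most abundant and the 2 of largest fold change; the 3 profiles nearest to G0S2 were also named. The few other names were chosen after their values were seen. The design text calls the replicates biological. Alternatives were another pseudocount, other filters, TPM and quantile scaling, no trend, limma-voom, length correction, a replicate block and leaving out each library. Figures used matplotlib 3.10.9.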

Additional observations from a re-analysis of the deposited data

How the results depend on the processing

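The number of genes called over all genes tested was 5 as reported. It was 2 with no filter on low values, 3 with a filter of 5 FPKM, 3 with the replicate number as a block, 8 with the length trend removed and TRPV3 replicate 1 left out (chosen after seeing the data), and 67 by limma-voom without TRPV3 replicate 1. When 1 library was left out it ran from 2 to 8. The cause was not tested. Genes of the 8 lists called numbered 0 under every alternative run except limma-voom without TRPV3 replicate 1, which called 1, LIPG. Same-numbered libraries did not deviate together (correlations of -0.27, -0.04 and -0.17 across genes), so the labels' numbers were not taken as pairs. The log2 fold change of G0S2 ran from 0.80 to 1.19 over 17 alternatives. Those of the other 7 fitted genes stayed between -0.16 and 0.20. Depth limits PLIN5 and CIDEA: no library held more than 6 reads of either.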

Other observations

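The protein-coding neighbours of G0S2 within 100000 bases were looked at after their values were seen. LAMB3, which encodes a laminin chain of the basement membrane, lies on the opposite strand with 22954 bases between its start and that of G0S2. LAMB3 was at 251, 241 and 253 FPKM in TRPV3 libraries and 184, 179 and 189 FPKM in mock libraries, without overlap. The fitted difference was 0.43 on the log2 scale (SE 0.08), with a limma adjusted p of 0.374 and a limma-voom adjusted p of 0.404. Leaving out TRPV3 replicate 1 gave 0.42 by limma and an adjusted p of 0.000453 by limma-voom, and taking off the length trend gave 0.41. HSD11B1, which encodes an enzyme that regenerates cortisol and lies 9790 bases on the other side, was at 1.61, 0.849 and 1.06 FPKM in TRPV3 libraries and 0.677, 0.774 and 1.31 FPKM in mock libraries, with overlapping groups. CAMK1G had at most 12 reads in a library and TRAF3IP3 at most 17.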
